A study of Mus musculus with 4 samples.

Results

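The galectin genes compared here are the 8 genes listed in the transcript table as Lgals1, Lgals2, Lgals3, Lgals4, Lgals8, Lgals9, Lgals3bp and Lgalsl, of 52630 gene identifiers in all. They were taken by symbol, and Lgals1 was picked because it was higher in cells with less Topors. Its difference between the groups is therefore given as a description with no test, and the other 7 were chosen by name. RNA came from AML12, a non-tumour mouse hepatocyte line derived from mice transgenic for human TGF-alpha. Lentivirus delivered a short hairpin RNA to the cells, a control one in the shCtrl group and one against Topors in the shTopors group. Topors is an E3 ligase for ubiquitin and SUMO. Each group had 2 libraries, and both groups were grown in DMEM/F12 with 10% fetal bovine serum, ITS supplement and 0.1 µM dexamethasone. All cells were given 200 µl of virus concentrate and were collected 5 days later, with a medium change at 24 hours. Whether a group's 2 libraries came from separate cultures is not stated in the labels, so p-values here reflect only how these libraries vary, which may be technical. A single cell line was used, and the labels name no hairpin sequence.

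Galectins are small proteins that bind beta-galactoside sugars on glycoproteins and glycolipids. They are made without a signal peptide, act in the cytosol and nucleus, and also reach the cell surface, where they crosslink glycoproteins and matrix. Prototype galectins such as galectin-1 and galectin-2 have a single sugar-binding domain and form dimers. Galectin-3 is a chimera with a proline- and glycine-rich tail, and galectin-4, galectin-8 and galectin-9 are tandem-repeat forms with a pair of domains in one chain. Galectin-3 and galectin-8 are known for gathering on damaged lysosomes. Lgalsl encodes a galectin-related protein not known to bind lactose, and Lgals3bp encodes a secreted glycoprotein that galectins bind, which is not itself a galectin. In liver, galectin-1 and galectin-3 are best known from stellate cells, macrophages and tumours.

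The family shares a run of codons for histidine, any residue, asparagine, proline and arginine, some of whose side chains contact the sugar. The coding sequences below show it, because it separates the sugar-binding members from Lgalsl and Lgals3bp and the tandem-repeat forms from the rest. Each is read 5′ to 3′ on the coding strand from the GENCODE M21 transcript with the longest complete coding sequence (mm10), with the 15 bases of the signature in capitals and 15 coding bases on each side.
Lgals1: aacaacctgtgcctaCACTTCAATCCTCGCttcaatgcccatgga
Lgals2: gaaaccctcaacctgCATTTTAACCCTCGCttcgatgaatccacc
Lgals3: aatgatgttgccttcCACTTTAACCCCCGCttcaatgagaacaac
Lgals4 first copy: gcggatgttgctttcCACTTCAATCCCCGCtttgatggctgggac
Lgals4 second copy: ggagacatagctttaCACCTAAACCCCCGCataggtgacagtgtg
Lgals8 first copy: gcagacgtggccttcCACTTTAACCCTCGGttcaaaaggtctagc
Lgals8 second copy: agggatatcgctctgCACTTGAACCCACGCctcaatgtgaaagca
Lgals9 first copy: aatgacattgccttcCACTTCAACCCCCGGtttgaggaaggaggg
Lgals9 second copy: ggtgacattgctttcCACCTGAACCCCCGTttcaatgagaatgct

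These windows lie within single coding exons. They are chr15:78929661-78929705 (plus strand) for Lgals1, chr15:78851351-78851395 (minus) for Lgals2 and chr14:47384627-47384671 (plus) for Lgals3. The first and second copies are chr7:28835864-28835908 and chr7:28841176-28841220 (plus) in Lgals4, chr13:12454858-12454902 and chr13:12447237-12447281 (minus) in Lgals8, and chr11:78973111-78973155 and chr11:78965785-78965829 (minus) in Lgals9. Searched in frame on the coding strand, the signature was found in 34 of 21486 protein-coding genes (0.158%), among them 6 of the 8 members. Just 3 genes of the 21486 (0.014%) held it more than once, and these were Lgals4, Lgals8 and Lgals9. The letters of the signature were not found in the coding sequences of Lgalsl (172 codons) and Lgals3bp (577 codons). Coding sequences had 135 codons in Lgals1, 130 in Lgals2 and 264 in Lgals3, and 326, 325 and 353 in Lgals4, Lgals8 and Lgals9.

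Topors itself checks the labels. Its level in TPM (transcripts scaled to a fixed library total) was 21.9 and 29.2 in the controls, against 4.31 and 4.65 TPM after knockdown, 5.71-fold lower by the means (adjusted p = 0.0823 by limma's test). TPM scales reads by gene length and library, so levels can be set beside each other between genes, but it keeps no depth, so read numbers are unknown. Each library summed to between 999914 and 999943 TPM, with 12928 to 13847 genes at 1 TPM or more. Tests were made with limma on log2(TPM + 1) over the 13509 genes whose mean reached 1 TPM, with Benjamini-Hochberg adjustment and a call at an adjusted p under 0.05. All 8 members passed that filter. The median difference of all tested genes, shTopors minus shCtrl, was -0.18 on this log2 scale, so each member is also given as its excess over that median. Over tested genes the SD of the log2 difference within a pair was 0.69 for the knockdown libraries and 0.43 for the controls.

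Of 10 hepatocyte markers, 9 had a mean of at least 1 TPM, all but Fgb, for fibrinogen beta. All 10 summed to 7580 and 9135 TPM in shCtrl and to 8481 and 6763 TPM in shTopors. Keratin genes gave a large part of these sums, with Krt8 ranging from 2096 to 3218 TPM across libraries and Krt18 from 1719 to 3239 TPM. Each of these keratin genes was highest in shTopors 1. The overlap of the sums therefore does not show that the genes for plasma proteins were unchanged. Ttr, Trf and Apob, all for plasma proteins, were lower in both knockdown libraries, the keratin gene Krt18 was higher in both, and the other 6 overlapped. Over all tested genes 35.2% lay below both controls and 14.6% above, so these counts were near the background. Ttr, for transthyretin, was at 1119 and 2168 TPM in the controls, against 195 and 410 TPM after knockdown, and Alb, for albumin, was at 118 and 271 TPM, against 4.15 and 402 TPM. Their part in the galectin values was not tested. Since galectin-1 and galectin-3 RNA is common in other liver cells, their markers were summed too. The 12 stellate cell and fibroblast markers summed to 1.36 to 1.52 TPM in shCtrl and 0.413 to 1.22 TPM in shTopors, with Col1a2, Col3a1, Lum and Lrat at 0 in all libraries. The 8 endothelial markers summed to at most 0.227 TPM in any library, with Cdh5, Tie1, Lyve1 and Clec4g at 0. The 10 macrophage and leukocyte markers summed to 94.8 and 121 TPM in shCtrl and to 112 and 218 TPM in shTopors, nearly all from Cd14, while Adgre1, Laptm5, Cd52 and Tyrobp were at 0. No stellate cell, fibroblast or endothelial marker had a mean of at least 1 TPM. Of the 10 macrophage and leukocyte markers 1 did, Cd14, at 92.9 to 216 TPM over the libraries. The 6 bile duct markers summed to 952 and 1412 TPM in shCtrl and to 1891 and 1088 TPM in shTopors.

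Lgals1 had the highest level of the 8 genes in every library. It encodes galectin-1 and spans chr15:78926725-78930465 on the plus strand in mm10. Its level was 788 and 684 TPM in shCtrl 1 and shCtrl 2, and 1493 and 2039 TPM in shTopors 1 and shTopors 2. Both knockdown libraries lay above both controls, and shTopors 2 was the higher. Group averages were 736 ± 73.5 and 1766 ± 387 TPM (SD, n = 2), 2.40-fold higher in the knockdown. On the log2(TPM + 1) scale the difference was 1.25 (SE 0.22), or 1.43 above the all-gene median, and 133 of the 13509 tested genes had a larger one. Counted by level among 21892 protein-coding genes, Lgals1 stood at place 98 and 118 in shCtrl and at place 60 and 31 in shTopors. In such bulk RNA, more cells with a high Lgals1 level and more Lgals1 RNA per cell cannot be told apart. With any 1 library left out the log2 difference ranged from 1.02 to 1.47.

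**Figure D1:**
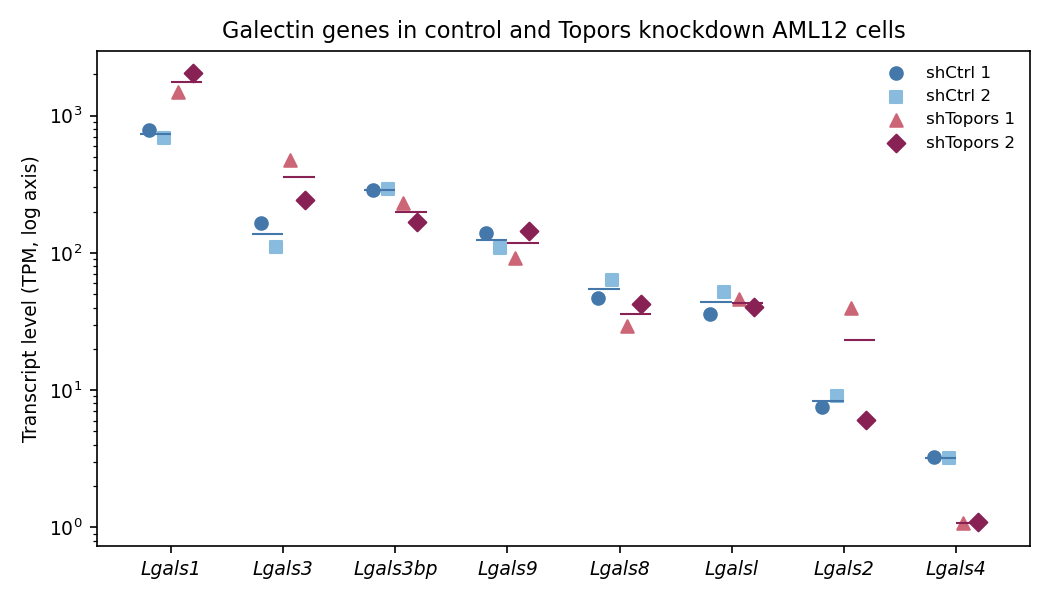
Transcript level of each galectin gene (TPM, log axis) in the 4 libraries, with points for libraries and short lines for group means. Lgals1 and Lgals3 lie higher in both shTopors libraries than in both shCtrl libraries, Lgals4, Lgals8 and Lgals3bp lie lower in both, and Lgals2 is high in shTopors 1 only.

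None of the other 7 genes passed the test, against 0.0370% of all tested genes (0.00740% higher and 0.0296% lower). In limma's fit an unadjusted p under 0.05 was found for 2 of the 7, Lgals3 higher and Lgals4 lower, against 14.7% of all tested genes (3.98% higher and 10.7% lower). The groups did not overlap in 4 of the 7, with Lgals3 above the controls and Lgals4, Lgals8 and Lgals3bp below them. Over all tested genes this held for 49.8%, with 14.6% above and 35.2% below. The median log2 difference of the 7 was -0.10, beside -0.18 over all tested genes. Directions thus differed among the members. When shTopors 1 was left out 1 of the 7 passed (Lgals4), against 8.49% of all tested genes. When shTopors 2 was left out 3 did (Lgals2, Lgals3 and Lgals4), against 16.0% of all tested genes. Both settings leave 1 knockdown library, with the lone knockdown library assumed to vary like the controls.

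Lgals3, the gene of the chimera galectin-3, was the member nearest to Lgals1 in size of difference. It spans chr14:47367751-47386160 on the plus strand. It stood at 164 and 111 TPM in shCtrl 1 and shCtrl 2, and 473 and 243 TPM in shTopors 1 and shTopors 2. Both knockdown libraries were above both controls, but here shTopors 1 was the higher, the reverse of Lgals1. The means were 138 ± 37.6 and 358 ± 163 TPM (SD, n = 2), a ratio of 2.60. The log2 difference was 1.32 (SE 0.36, 1.50 above the all-gene median), and its adjusted p = 0.222 in limma's test did not pass. Without shTopors 1 the difference was 0.84 and without shTopors 2 it was 1.80. The within-library ratio of Lgals1 to Lgals3 was 4.80 and 6.15 in shCtrl, 3.15 in shTopors 1 and 8.40 in shTopors 2, so the knockdown libraries lay on either side of the controls.

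Lgals2, the other prototype member, was high in a single library. It spans chr15:78850860-78855529 on the minus strand, on the same chromosome as Lgals1. Its level was 7.60 and 9.02 TPM in the controls, and shTopors 1 and shTopors 2 had 40.0 and 6.10 TPM. The groups overlapped, because shTopors 2 lay below both controls. Its difference on that scale was 0.88 (SE 0.72, 1.06 above the all-gene median), at an adjusted p = 0.583 by limma's test. It was 2.14 without shTopors 2 and turned to -0.39 without shTopors 1. Of the 6 bile duct markers, Krt19 was highest in shTopors 1, as Lgals2 and Lgals3 were, at 1396 TPM against 296 to 345 TPM in the other libraries. Krt7 was also highest there, at 127 TPM against 64.4 to 106 TPM. Sox9 (26.9 TPM against 42.1 to 91.2 TPM) and Spp1 (341 TPM against 441 to 919 TPM) were instead lowest there, and Epcam and Cldn4 were under 0.1 TPM in all libraries. Whether these marker levels bear on the galectin values was not tested.

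**Figure D2:**
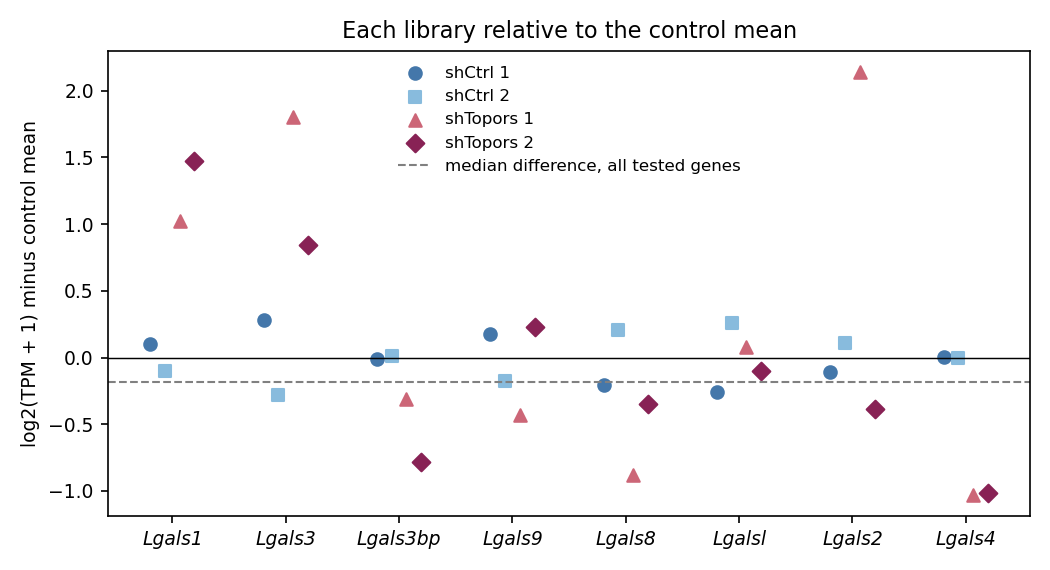
log2(TPM + 1) of each galectin gene in each library minus the mean of the 2 control libraries, with the dashed line at the median difference of all tested genes (-0.18). Lgals1 is highest in shTopors 2, Lgals3 and Lgals2 are highest in shTopors 1, and the Lgals4 pairs nearly coincide.

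Among the tandem-repeat members, Lgals4 and Lgals8 were lower in both knockdown libraries and Lgals9 was not. Lgals4, whose protein is best known from gut epithelium, spans chr7:28833854-28841708 on the plus strand and had the lowest level of the 8. It was listed at 3.24 and 3.21 TPM in the controls, against 1.07 and 1.09 TPM after knockdown. The libraries of each group nearly coincided, and the groups were far apart relative to that spread. The means were 3.23 ± 0.0239 and 1.08 ± 0.00894 TPM (SD, n = 2), 2.99-fold lower in shTopors. The log2 difference was -1.02 (SE 0.28, excess -0.84), at an adjusted p = 0.222 by limma's test, which draws the spread towards that of genes of like level. At this low level the added 1 TPM shrinks the difference, which was -1.49 with a pseudocount of 0.1 (adjusted p = 0.238) and -0.44 with a pseudocount of 5 (adjusted p = 0.211). Over the settings that keep all libraries its adjusted p in limma's test ranged from 0.176 to 0.396. With 1 library left out its log2 difference ranged from -1.03 to -1.02.

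Lgals8, whose product marks damaged lysosomes for removal, spans chr13:12439415-12464944 on the minus strand. It was at 47.0 and 63.1 TPM in the controls, and shTopors 1 and shTopors 2 had 29.2 and 42.5 TPM. All knockdown values lay below the controls, with shTopors 2 close to shCtrl 1. Its difference on that scale was -0.62 (SE 0.30, excess -0.43), at an adjusted p = 0.389 by limma's test. Lgals8 shares 875 bases with Heatr1 on the opposite strand, and although the library kit keeps strand, no source used here says whether the counting did. Heatr1, which encodes a ribosome biogenesis factor, was at 17.0 and 21.6 TPM in shCtrl and 30.1 and 31.6 TPM in shTopors.

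Lgals9, whose product binds immune receptors, spans chr11:78962974-78984946 on the minus strand. Its level was 141 and 110 TPM in the controls, and shTopors 1 and shTopors 2 had 91.9 and 146 TPM. The knockdown libraries held both the lowest and the highest value, so the groups overlapped. Between groups the log2 difference was -0.10 (SE 0.30, excess 0.08; adjusted p = 0.883 in limma's test), and its direction turned under median-of-ratios scaling (0.11).

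The secreted glycoprotein gene Lgals3bp, at chr11:118392751-118402092 on the minus strand, was lower in both knockdown libraries. It was at 287 and 291 TPM in the controls, and shTopors 1 and shTopors 2 had 233 and 168 TPM. The controls differed little and the knockdown libraries lay apart, with shTopors 2 the lower. The means were 289 ± 2.64 and 200.2 ± 45.9 TPM (SD, n = 2). The log2 difference was -0.54 (SE 0.24, excess -0.36), at an adjusted p = 0.360 by limma's test. Lgals3bp was thus lowest in the library where Lgals1 was highest.

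Lgalsl, the galectin-related gene at chr11:20823576-20831056 on the minus strand, had overlapping groups. It was at 36.1 and 52.0 TPM in the controls, against 45.9 and 40.4 TPM after knockdown. Both knockdown values lay between the controls. The log2 difference was -0.01 (SE 0.28, excess 0.17), at an adjusted p = 0.991 by limma's test, and it became 0.20 and 0.13 under median-of-ratios scaling and quantile normalization. A processed copy of Lgalsl, listed at under 0.5 TPM, could share its reads. Other family genes outside the 8 were Lgals7 and Lgals12, at no more than 0.411 and 0.0601 TPM in any library, and Grifin, listed at 0.

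The order of levels in shCtrl was Lgals1, Lgals3bp, Lgals3, Lgals9, Lgals8, Lgalsl, Lgals2 and Lgals4. Of neighbours in that order, Lgals3 with Lgals9 and Lgals8 with Lgalsl overlapped between libraries, and the other pairs did not. In shTopors, Lgals3 stood above Lgals3bp in both libraries, where in shCtrl it stood below. There Lgalsl with Lgals8 and Lgals8 with Lgals2 overlapped.

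Lgals1 made up a larger share of the summed TPM of the 8 genes in the knockdown. Its share was 53.5% and 51.7% in shCtrl, 62.0% in shTopors 1 and 75.9% in shTopors 2. The group means were 52.6 ± 1.24% and 69.0 ± 9.84% (SD, n = 2), a difference of 16.4 percentage points, which is not tested because Lgals1 was picked for its rise. The summed TPM of the other 7 genes was 686 and 639 TPM in the controls, and shTopors 1 and shTopors 2 had 914 and 646 TPM, so that sum overlapped between groups. Without shTopors 1 the difference in share was 23.3 points, and without shTopors 2 it was 9.43 points. The share of Lgals3bp was 19.5% and 22.0% in shCtrl and 9.67% and 6.25% in shTopors, and that of Lgals3 was 11.1% and 8.41% in shCtrl, 19.7% in shTopors 1 and 9.04% in shTopors 2.

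**Figure D3:**
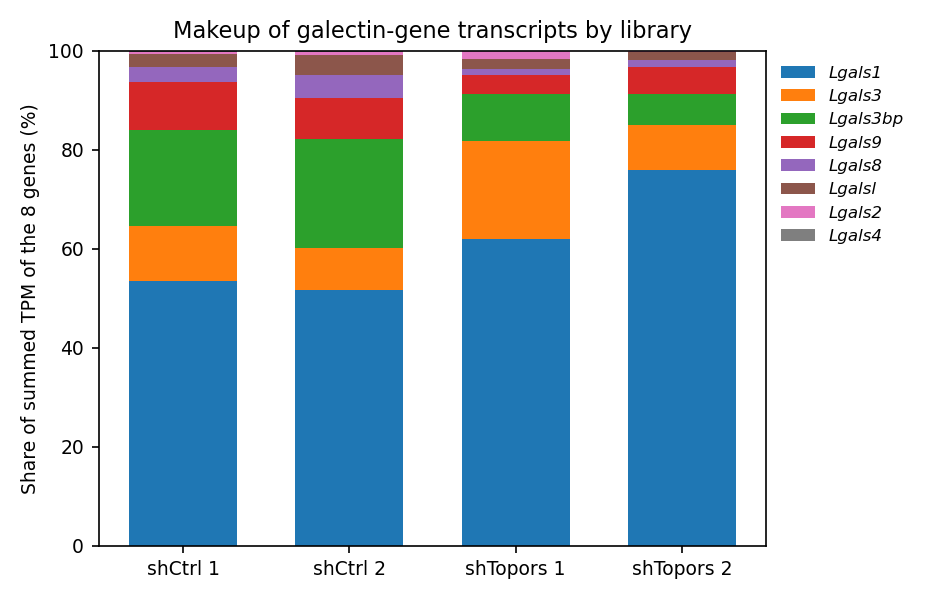
Share of the summed TPM of the 8 galectin genes taken by each gene in each library (%). Lgals1 takes 53.5% and 51.7% in the shCtrl libraries and 62.0% and 75.9% in the shTopors libraries, while the Lgals3bp share is smaller in both shTopors libraries.

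Genes around Lgals1 were compared because the study's title concerns higher-order chromatin organization. Within 250 kb of Lgals1 the table held 24 other genes, Lgals2 among them, of which 14 were tested. None passed, against 0.0370% of all tested genes, and 4 had an unadjusted p under 0.05 in limma's fit, against 14.7%. The groups did not overlap for 3 genes above and 3 below the controls, against 14.6% and 35.2% of all tested genes, and the median log2 difference was -0.09, beside -0.18 over all tested genes. The 4 nearest tested protein-coding genes were Nol12, Sh3bp1, Triobp and Gga1, and all of them had overlapping groups. Nol12, a nucleolar protein gene 4.47 kb downstream, was at 14.1 and 11.7 TPM in the controls, against 13.9 and 14.1 TPM after knockdown. Sh3bp1, which encodes a GTPase-activating protein for Rac, was at 4.20 and 4.97 TPM in the controls, and shTopors 1 and shTopors 2 had 6.04 and 2.56 TPM.

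Triobp, an actin-bundling protein gene, had a log2 difference of 0.14 (SE 0.29), and Gga1, a Golgi adaptor gene, one of -0.05 (SE 0.28). The largest differences in the region were farther out. Cdc42ep1, which encodes a CDC42 effector and overlaps the 3′ end of Lgals2 by 38 bases on the opposite strand, was at 138 and 114 TPM in the controls, against 42.4 and 57.4 TPM after knockdown. Its log2 difference was -1.33 (SE 0.27), at an adjusted p = 0.154 by limma's test. Gcat, a threonine breakdown enzyme gene that, like Cdc42ep1, was singled out for its values, was at 12.2 and 13.8 TPM in the controls, against 32.6 and 23.5 TPM after knockdown. Without shTopors 1, 1 of the 14 genes passed (Cdc42ep1), against 8.49% of all tested genes, and without shTopors 2, 3 did (Cdc42ep1, Gcat and Lgals2), against 16.0%.

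**Figure D4:**
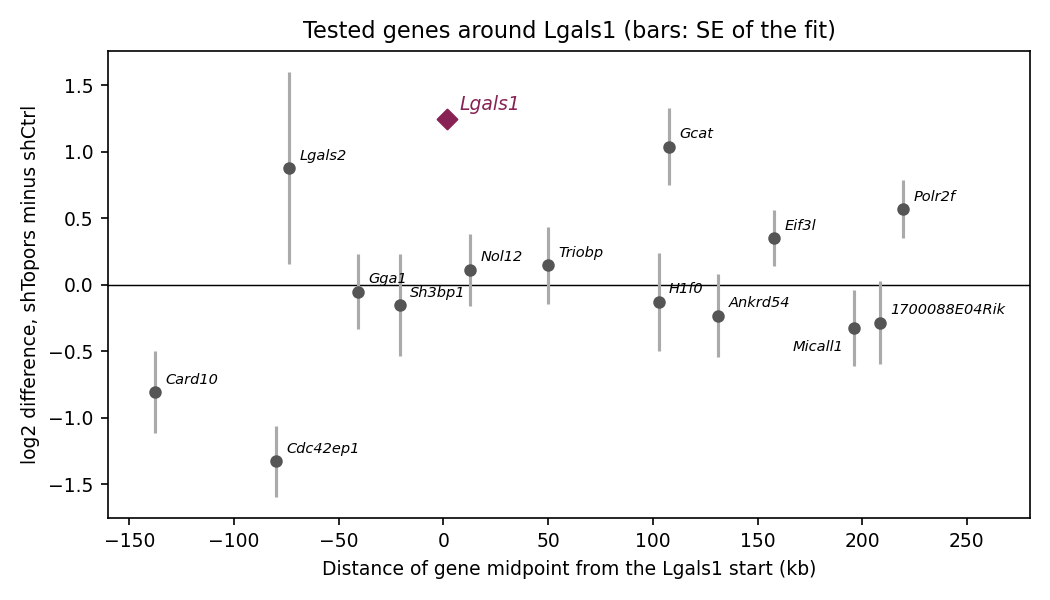
log2 difference (shTopors minus shCtrl) of each tested gene around Lgals1 against the distance of its midpoint from the Lgals1 start (kb), with bars for the SE of the fit. The genes nearest to Lgals1 lie near 0, and Cdc42ep1 (-1.33) and Gcat (1.04) have the largest differences apart from Lgals1.

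Genes with a pattern near that of Lgals1 were looked for among 2526 tested genes whose mean reached 50 TPM. Likeness was the Euclidean distance between log2(TPM + 1) values, each minus its control mean, over the 4 libraries, and it describes a shape rather than a test. The 5 nearest were Serpine2 (distance 0.314), Tsta3 (0.314), Ctps (0.325), Taf1d (0.339) and Clcn5 (0.454). Serpine2, which encodes a secreted serine protease inhibitor, was at 33.2 and 36.2 TPM in the controls, against 80.8 and 89.9 TPM after knockdown. Tsta3, an enzyme gene of GDP-fucose synthesis, was at 57.3 and 54.3 TPM in the controls, against 128.6 and 131.5 TPM after knockdown. The others were lower in both controls than in both knockdown libraries too, as the choice by distance brings about. Within the controls, Serpine2, Ctps, Taf1d and Clcn5 were higher in shCtrl 2, the reverse of Lgals1, and Tsta3 was higher in shCtrl 1. Lgals3, at a distance of 1.03, stood at place 101.

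Galectins bind chains that glycosyltransferases build, and none of these enzyme genes passed the test. Of 24 listed genes for N-glycan branching, galactose addition and O-glycan cores, 18 were tested. In limma's fit 3 of the 18 had an unadjusted p under 0.05, against 14.7% of all tested genes. The groups did not overlap for 2 above and 4 below, against 14.6% and 35.2%, so these counts were near or under the background. Their median log2 difference was -0.10, beside -0.18 over all tested genes. The most abundant were Mgat4b, C1galt1 and Mgat2, whose log2 differences were -0.12, -0.07 and -0.08. B4galt5, a galactosyltransferase gene best known for lactosylceramide, was at 43.6 and 55.2 TPM in the controls, and shTopors 1 and shTopors 2 had 20.0 and 10.6 TPM. Both knockdown values were below both controls, with a log2 difference of -1.69 (SE 0.35) and an adjusted p = 0.162. C1galt1c1, the chaperone gene of core 1 O-glycan synthesis, was at 17.2 and 30.3 TPM in the controls, against 46.1 and 51.6 TPM after knockdown, with an adjusted p = 0.236. Mgat3, singled out for the spread of its knockdown libraries, was at 4.04 and 4.05 TPM in the controls. In shTopors 1 and shTopors 2 it had 14.2 and 1.22 TPM. The direction of its difference therefore depended on which knockdown library was left out, while B4galt5 and C1galt1c1, whose groups did not overlap, kept theirs.

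Sialic acid on galactose limits the binding of several galectins, and of 12 genes for its addition and supply 10 were tested and none passed. In limma's fit 2 of the 10 had an unadjusted p under 0.05, against 14.7% of all tested genes. The groups did not overlap for 2 above and 2 below, against 14.6% and 35.2%, and the median log2 difference was -0.22, beside -0.18 over all tested genes. St6gal1, the main alpha-2,6-sialyltransferase gene of liver, was at 76.1 and 94.2 TPM in the controls, against 81.0 and 57.6 TPM after knockdown, so its groups overlapped. Cmas and Nans, of sialic acid synthesis and activation, had log2 differences of 0.38 and 0.50. St3gal5, the GM3 ganglioside synthase gene, was at 61.5 and 64.3 TPM in the controls, and shTopors 1 and shTopors 2 had 8.46 and 31.5 TPM. Its log2 difference was -1.86 (SE 0.53) with an adjusted p = 0.224, and St3gal2, another alpha-2,3-sialyltransferase gene, had one of -0.82 (SE 0.29) with an adjusted p = 0.275. Without shTopors 1, 2 of the 10 passed (Slc35a1 and St3gal5), against 8.49% of all tested genes, and without shTopors 2, 2 did (Nans and St3gal5), against 16.0%.

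None of the genes for glycoproteins reported to bind galectins passed either. Of 24 listed genes, 17 were tested and 6 had an unadjusted p under 0.05 in limma's fit, against 14.7% of all tested genes. Of the 6, 2 were higher and 4 lower, against 3.98% and 10.7%. The groups did not overlap for 2 above and 8 below, against 14.6% and 35.2%, and the median log2 difference was -0.32, beside -0.18 over all tested genes. P4hb, for protein disulfide isomerase, had a log2 difference of -0.06, and Lamp1, a lysosomal membrane glycoprotein gene, one of -0.28. Fn1, the fibronectin gene, was at 769 TPM in both controls, 183 TPM in shTopors 1 and 542 TPM in shTopors 2. Lamb1, the laminin beta-1 gene, was at 3.11 and 3.48 TPM in the controls, and shTopors 1 and shTopors 2 had 22.5 and 9.92 TPM. Its log2 difference was 1.90 (SE 0.40), with an adjusted p = 0.165. Egfr, the EGF receptor gene, was at 156 and 130 TPM in the controls, against 72.5 and 69.6 TPM after knockdown, a log2 difference of -0.99 (SE 0.23) with an adjusted p = 0.177. Without shTopors 1, 7 of the 17 passed (Cd44, Egfr, Itga7, Lamb1, Lamc1, Nrp1 and Slc3a2), against 8.49% of all tested genes. Without shTopors 2, 6 did (Egfr, Fn1, Itga1, Itga3, Lamb1 and Nrp1), against 16.0%.

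Another list held cytosolic and nuclear partners of galectins, mostly of damaged-lysosome handling. Of 22 listed genes, 21 were tested and none passed, 1 had an unadjusted p under 0.05 in limma's fit, against 14.7% of all tested genes. The groups did not overlap for 2 above and 8 below, against 14.6% and 35.2%, and the median log2 difference was -0.27, beside -0.18 over all tested genes. Ulk1, the autophagy-starting kinase gene, was at 26.4 and 26.6 TPM in the controls and at 13.8 TPM in both knockdown libraries. Its log2 difference was -0.89 (SE 0.26), with an adjusted p = 0.224. Sqstm1, an autophagy receptor gene, was at 503 and 466 TPM in the controls, against 351 and 348 TPM after knockdown, with an adjusted p = 0.342. Ctnnb1, the beta-catenin gene, and Tax1bp1, an autophagy receptor gene, had overlapping groups. For Ctnnb1 the controls were at 674 and 533 TPM, and shTopors 1 and shTopors 2 had 756 and 291 TPM.

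**Figure D5:**
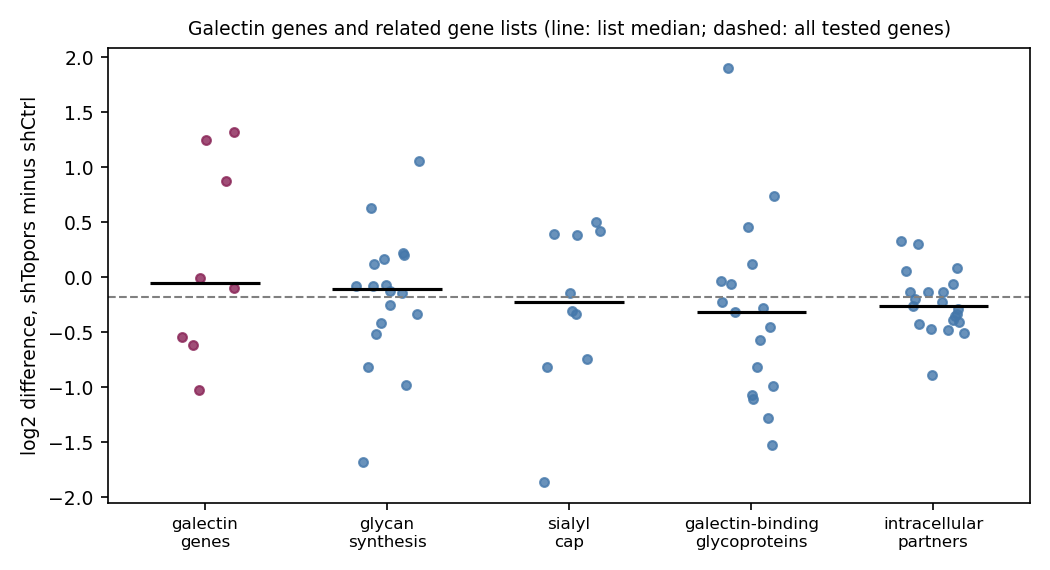
log2 difference (shTopors minus shCtrl) of each tested gene in the galectin family and in the 4 related lists, with black lines for list medians and the dashed line for all tested genes (-0.18). Galectin genes range from -1.02 to 1.32, and the list medians lie between -0.32 and -0.05.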

How the data were processed

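The authors deposited TPM per gene and library, as the column totals of 999914 to 999943 show. Per the submitters' processing notes, HISAT2, HTSeq, DESeq2, StringTie and the build mm10 were used. Not given in the sources used here are versions, roles, the strand setting and what program made the TPM values. The table's columns were matched to samples by name. Of 52633 rows, 3 repeated an identifier and were summed. Of 27 symbols turned into dates, 26 were restored through GENCODE M21, which holds 52483 of the identifiers and gave coordinates and coding sequences.

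Differences, shTopors minus shCtrl, were fitted with limma 3.58.1 in R 4.3.3 on log2(TPM + 1) with a mean-variance trend, no other term and Benjamini-Hochberg adjustment over 13509 genes. Such fold changes understate those of low genes. The steps were tested on simulated data. Pseudogene transcripts were aligned with Biopython 1.88. Alternatives were other pseudocounts (0.1 and 5), filters, scalings, variance models, omission of each library in turn and a replicate block. The members, lists and tests were chosen with earlier results of these data known. Named are all members, of each list the 3 genes with the highest mean TPM and the 2 with the smallest p, the 4 tested coding genes nearest to Lgals1 and the 5 most like it. Python 3.11.15, numpy 2.4.6, pandas 2.3.3 and matplotlib 3.10.9 were used.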

Additional observations from a re-analysis of the deposited data

How the results depend on the processing

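Lgals1, Lgals3, Lgals4, Lgals8 and Lgals3bp kept the direction of their difference under every alternative that gave a value. Their groups did not overlap, so omitting a library or changing the pseudocount could not turn it. Filters, variance models and the replicate block leave the log2 difference itself unchanged. Only the scalings could therefore have turned these directions. Lgals4 was left out of the test by the minimum mean of 5 TPM. The log2 difference of Lgals1 ranged from 1.02 to 1.46 over the settings that keep all libraries, and its share of the members' TPM was higher by 12.0 points after quantile normalization and by 9.43 to 23.3 points with 1 library left out. Scaling moved the median log2 difference of all genes from -0.18 to 0.01 (median of ratios) and -0.01 (quantile normalization). Directions turned for Lgals9 under median-of-ratios scaling (0.11), for Lgalsl under median-of-ratios scaling (0.20) and quantile normalization (0.13), and with 1 library left out for Lgals2 (-0.39 to 2.14), Lgals9 (-0.43 to 0.23) and Lgalsl (-0.27 to 0.25).

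Of 13509 tested genes 5 passed, and of 24900 tested with no filter on low values 0 did. An unadjusted p under 0.05 in limma's fit was found for 1984 of the 13509 and 2730 of the 24900. Just 1 passed in each of 4 settings: a minimum mean of 5 TPM, quantile normalization, median-of-ratios scaling and rescaling to protein-coding genes. With a replicate block 33 of 13509 tested genes passed, 6 higher and 27 lower, and none of the 7 galectin genes did. With so few calls over all genes, none among 7 is not a result about them. The labels do not say what a replicate number shares, and the deviations of same-numbered libraries correlated at 0.20 over genes. With 1 library left out the number of genes passing ranged from 0 to 2166 for all genes, from 0 to 3 for the 7 galectin genes and from 0 to 6 for glycan synthesis. It ranged from 0 to 2 for sialic acid genes, from 0 to 7 for galectin-binding glycoproteins, from 0 to 1 for intracellular partners and from 0 to 3 around Lgals1. The counts above 0 for these lists came without shTopors 1 or shTopors 2, and the cause was not tested. TPM gives no depth, so no detection limit could be set for low genes such as Lgals4.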

Other observations

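A pair of processed pseudogenes carry the symbols Lgals1-ps1 and Lgals1-ps2, but their sequences match Lgalsl. Of the 519 bases of the Lgals1-ps2 transcript, 510 aligned with the Lgalsl transcript, 473 of them identical (92.7%), and 12 aligned with Lgals1. Of the 368 bases of Lgals1-ps1, 357 aligned with Lgalsl at 92.7% identity, and 12 aligned with Lgals1. Lgals1-ps2, at chr15:79255574-79256092 had 0.487 and 0.410 TPM in the controls, against 0.0164 and 0.0221 TPM after knockdown, below the filter of the test. Lgals1-ps1 was listed at 0 in all libraries. Any reads that these copies share would therefore bear on Lgalsl rather than on Lgals1.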
